A study of Homo sapiens with 9 samples.

Results

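The 7 genes described here encode components and regulators of the complement system: CD46, CD55, CD59, C3, CFI, CLU and SERPING1. They were chosen by symbol, and all 7 were listed among the 58920 genes of each count table. At least 1 read was counted for 6 of them, and 5 had the 10 counts over all libraries that were required for testing, as did 19102 genes in all.

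Complement is a cascade of plasma proteins that coats cells with fragments of C3 and can end in a pore in the membrane, and antibodies bound to a cell are a classical trigger of it. C3 is the central component, from which the convertases of the cascade are built. CD46 (membrane cofactor protein) and CD55 (decay-accelerating factor) stop the cascade at the cell surface, CD46 as a cofactor of the protease factor I, which CFI encodes, and CD55 by taking convertases apart. CD59 blocks the last step, the assembly of the pore. Clusterin (CLU) and the C1 inhibitor (SERPING1) are secreted regulators that act on the terminal complex and on the first proteases of the classical pathway, respectively. Epithelial cells, among them those of the colon, carry CD46, CD55 and CD59 on their surface, whereas the liver is the main source of plasma C3, factor I and C1 inhibitor.

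The libraries came from LIM1215, a RAS wild-type and microsatellite-unstable colorectal cancer cell line. LIM1215-R1 and LIM1215-R2 are resistant populations obtained in parallel by long culture with rising amounts of cetuximab, an antibody against the EGF receptor, and LIM1215-parental cells were kept alongside without it. Both resistant lines are mixed populations rather than clones, and subpopulations of each carry activating HRAS mutations, in a different exon in each line, so RAS wild-type describes the starting line. RNA was taken from the 3 lines in basal culture without treatment, and 3 libraries per line were sequenced. The replicates are described as technical, so p-values measure the spread between these libraries, and a difference between cultures cannot be told apart from one between lines.

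Total counts lay between 13737416 and 18725014 per library. Levels are given as CPM (counts scaled to a library of common size) with the TMM scaling factors, which lay between 0.984 and 1.02, and 3 counts in a library corresponded to 0.158 to 0.217 CPM. The 11 epithelial markers summed to 13200 to 13600 CPM in the parental line, 16500 to 16800 in LIM1215-R1 cells and 15000 to 15400 in LIM1215-R2, and only KRT20 among them, which an alternate sequence of hg38 covers, was listed at 0. KRT8 and KRT18 made most of this sum, and in LIM1215-R1 against LIM1215-parental 4 of the 10 markers tested passed as higher and 5 as lower, with equal counts in LIM1215-R2 against LIM1215-parental. Of 11 leukocyte markers, 6 were at 0 in all libraries, namely CD3E, CD3D, MS4A1, TYROBP, PTPRC and AIF1. Alternate sequences of hg38 cover AIF1 and 77.1% of the PTPRC transcript, so the zeros of PTPRC and AIF1 are not read as a lack of expression. The leukocyte list summed to 7.55 to 10.8 CPM in the parental line, 11.9 to 14.9 in LIM1215-R1 cells and 8.69 to 10.5 in LIM1215-R2, of which CD68 made most with a mean of 10.5 CPM. The fibroblast list was at 3.19 CPM or lower, with COL1A2, PDGFRA and THY1 at 0, and the endothelial list at 0.722 CPM or lower. The hepatocyte list summed to 28.0 to 35.7 CPM, nearly all of it CPS1, and ALB did not exceed 0.217 CPM.

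CD46 and CD55 lie on the long arm of chromosome 1 in the cluster of genes called regulators of complement activation. Their promoters are shown because these neighbours, both surface regulators, moved alike in LIM1215-R1 and differently in LIM1215-R2. In the GENCODE annotation of GRCh38, CD46 spans chr1:207752037-207795513 and CD55 spans chr1:207321519-207386804, both on the plus strand. The windows come from RefSeq (GRCh38.p14) and reach from 250 bases before to 50 bases after a start annotated there. They are chr1:207751788-207752087 for CD46 and chr1:207321428-207321727 for CD55. For CD55 the RefSeq start lies downstream of the GENCODE start, so part of the window before it falls within the GENCODE span of the gene. CD46 has a second annotated start nearby, and its first is shown. Capitals mark matches on either strand to the SP1 motif GGGCGG and to TGACG, the core of the cyclic AMP response element.
CD46: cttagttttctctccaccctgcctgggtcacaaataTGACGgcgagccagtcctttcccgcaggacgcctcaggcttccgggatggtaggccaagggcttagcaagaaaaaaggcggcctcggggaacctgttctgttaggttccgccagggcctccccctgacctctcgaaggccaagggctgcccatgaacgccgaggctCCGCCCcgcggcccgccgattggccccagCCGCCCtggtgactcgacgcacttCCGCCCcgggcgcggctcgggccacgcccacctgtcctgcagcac
CD55: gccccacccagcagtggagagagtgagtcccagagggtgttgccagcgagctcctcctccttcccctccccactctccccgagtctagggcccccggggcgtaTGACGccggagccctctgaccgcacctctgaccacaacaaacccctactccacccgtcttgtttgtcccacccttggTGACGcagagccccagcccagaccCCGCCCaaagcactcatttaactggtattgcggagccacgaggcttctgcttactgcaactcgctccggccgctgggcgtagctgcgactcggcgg

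The CD46 window held 3 matches to GGGCGG and 1 to TGACG, and the CD55 window 1 and 2. Of 35116 RefSeq promoter windows of this length, 45.0% held GGGCGG and 24.6% held TGACG on either strand. Neither window matched the AP-1 motif TGANTCA, the GAS motif TTCNNNGAA or the NF-kB motif, which 7.71%, 7.66% and 5.91% of all windows held. The GC content of the windows was 67.0% for CD46 and 65.0% for CD55. Of the other members, CD59 and CFI had a promoter entry.

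Among the 5 tested members, CD46, CD55, C3 and CLU were higher in LIM1215-R1 than in LIM1215-parental, and none was lower. A gene passed the test at an adjusted p of at most 0.01 (edgeR's quasi-likelihood test, Benjamini-Hochberg adjustment over all genes tested). Of all genes tested in this comparison, 14.0% passed as higher and 27.3% in either direction. In LIM1215-R2 against LIM1215-parental, CD46 and CLU passed as higher and none of the 5 as lower, where 12.3% of all genes passed as higher and 23.8% in either direction. Between the resistant lines, 4 of the 5 members were lower in LIM1215-R2 than in LIM1215-R1 (CD55, CD59, C3 and CLU), beside 3.77% of all genes that passed as lower and 7.16% in either direction. At an unadjusted p under 0.05, edgeR's test gave 0 members as lower in LIM1215-R1 and 1, CD59, as lower in LIM1215-R2, against LIM1215-parental in each case. The share of all genes at that unadjusted threshold is not given here. At an adjusted p of at most 0.01, DESeq2's Wald test passed 4, 2 and 3 members in the 3 comparisons. The shares of all genes above are from edgeR's test, and those from DESeq2's are not given here. The median log2 fold change of the 5 members was 0.62, 0.084 and -0.485 in these comparisons, and that of all genes was -0.011, -0.0037 and -0.0011. Both comparisons with LIM1215-parental use the same 3 parental libraries.

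**Figure D1:**
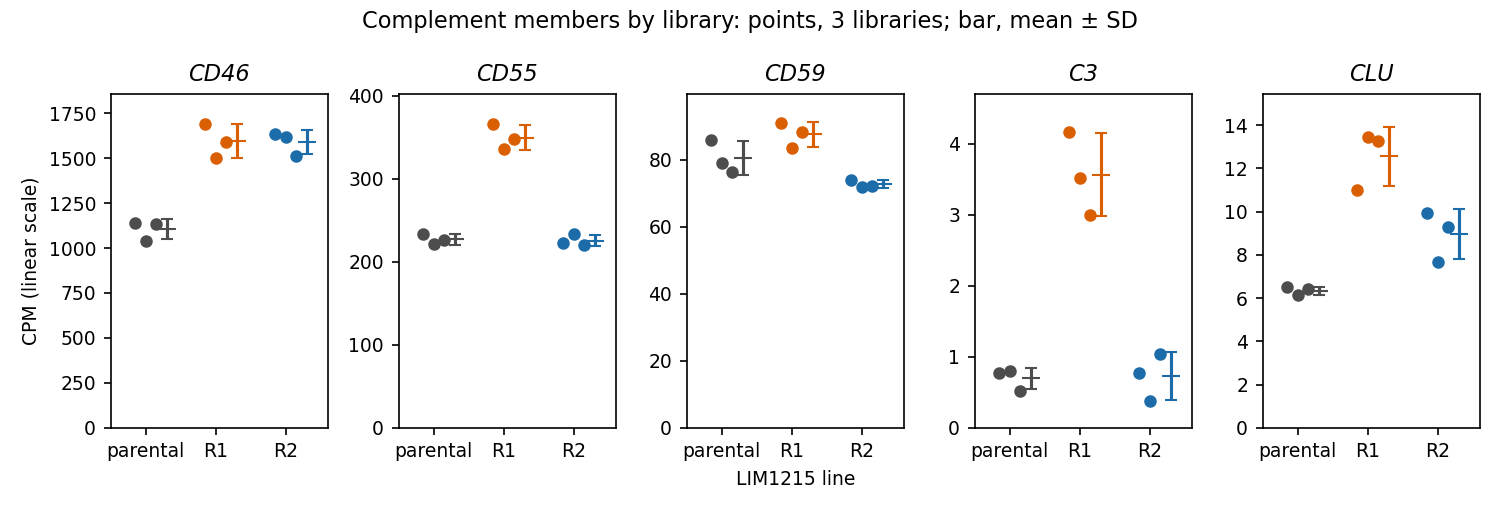
CPM of the 5 tested members on linear axes from 0, with a point per library and the mean ± SD of 3 libraries beside them. CD46 is higher in both resistant lines, CD55 and C3 are higher in LIM1215-R1 alone, and CLU is highest in LIM1215-R1 and lowest in LIM1215-parental.

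CD46, the surface cofactor of factor I, was the most abundant member and rose to a like extent in both resistant lines. Its level was 1140, 1040 and 1135 CPM in the LIM1215-parental libraries, 1689, 1501 and 1591 CPM in LIM1215-R1, and 1634, 1618 and 1513 CPM in LIM1215-R2. All 6 resistant libraries stood above all 3 parental ones, and the resistant lines overlapped each other. The means were 1105 ± 56.1, 1594 ± 94.2 and 1588 ± 65.7 CPM (SD, n = 3 each). On the log2 scale LIM1215-R1 was higher by 0.53 (SE 0.043, adjusted p = 9.84e-11) and LIM1215-R2 by 0.52 (SE 0.043, adjusted p = 1.17e-10), a rise of 1.44-fold in each. The difference between LIM1215-R2 and LIM1215-R1 was -0.0051 on the log2 scale, with a 95% interval from -0.093 to 0.083 (adjusted p = 0.966). With a correction for GC content and transcript length in each library, that difference became -0.15 and passed the test (adjusted p = 3.52e-05). MIR29B2CHG overlaps CD46 on the opposite strand, and the counts were made by strand.

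CD55, the decay-accelerating factor, was higher in LIM1215-R1 only. Its level was 233.6, 220.8 and 226.1 CPM in the LIM1215-parental libraries, 365.4, 335.6 and 347.4 CPM in LIM1215-R1, and 222.6, 233.1 and 220.2 CPM in LIM1215-R2. Every LIM1215-R1 library was above every other library, and LIM1215-R2 overlapped LIM1215-parental. The means were 227 ± 6.45, 349 ± 15.0 and 225 ± 6.88 CPM (SD, n = 3 each). The log2 fold change in LIM1215-R1 was 0.62 (SE 0.045, adjusted p = 8.61e-12), a rise of 1.54-fold. In LIM1215-R2 it was -0.01, with a 95% interval from -0.10 to 0.084 (adjusted p = 0.902). LIM1215-R2 against LIM1215-R1 gave -0.63 (SE 0.045, adjusted p = 6.74e-11), so the resistant lines differed in CD55 by more than the spread between their libraries.

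CD59, which blocks the membrane pore, passed the test between the resistant lines but in neither comparison with LIM1215-parental. Its gene lies at chr11:33703010-33736479 on the minus strand. Its level was 85.98, 79.11 and 76.32 CPM in the LIM1215-parental libraries, 91.03, 83.47 and 88.17 CPM in LIM1215-R1, and 74.03, 71.97 and 72.05 CPM in LIM1215-R2. LIM1215-R1 overlapped LIM1215-parental, and the LIM1215-R2 libraries were the lowest of the 9. The means were 80.5 ± 4.97, 87.6 ± 3.82 and 72.7 ± 1.17 CPM (SD, n = 3 each). Against LIM1215-parental its log2 fold changes were 0.12 (95% interval 0.0043 to 0.24, adjusted p = 0.102) in LIM1215-R1 and -0.15 (95% interval -0.27 to -0.027, adjusted p = 0.0552) in LIM1215-R2. Between the resistant lines CD59 was lower in LIM1215-R2, at -0.27 on the log2 scale (SE 0.058, adjusted p = 0.00191). That call was lost without LIM1215-R1 replicate 3 (adjusted p = 0.0143) or without LIM1215-R2 replicate 2 (adjusted p = 0.0179), while with that correction for GC content and length LIM1215-R1 against LIM1215-parental passed at 0.21 (adjusted p = 0.000149).

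C3, the central component, was low in all lines and was the member with the largest fold change, which was found in LIM1215-R1. The gene lies at chr19:6677704-6730562 on the minus strand. Reads per library were 13, 11 and 10 in LIM1215-parental, 68, 56 and 48 in LIM1215-R1, and 13, 6 and 16 in LIM1215-R2. As CPM these were 0.767, 0.795 and 0.525 in LIM1215-parental, 4.171, 3.515 and 3.004 in LIM1215-R1, and 0.773, 0.372 and 1.045 in LIM1215-R2. The 3 LIM1215-R1 libraries were above all others, and those of LIM1215-R2 and LIM1215-parental overlapped. The means were 0.696 ± 0.148, 3.56 ± 0.585 and 0.730 ± 0.339 CPM (SD, n = 3 each). The log2 fold change in LIM1215-R1 was 2.37 (SE 0.287, adjusted p = 1.64e-07), a rise of 5.16-fold.

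C3 was thereby the only member past the threshold for a differentially expressed gene (DEG), an adjusted p of at most 0.01 together with a log2 fold change of 1.5 or more in either direction. Of all genes, 5.14% were DEGs in LIM1215-R1 against LIM1215-parental, 3.24% as higher and 1.91% as lower. In LIM1215-R2 against LIM1215-parental no member was a DEG, beside 4.82% of all genes (2.63% as higher and 2.19% as lower), and the log2 fold change of C3 was 0.084 (95% interval -0.70 to 0.86, adjusted p = 0.901). With DESeq2's lfcShrink, which draws fold changes of low counts towards 0, the values of C3 were 1.56 in LIM1215-R1 against LIM1215-parental and -1.52 between the resistant lines. At this depth a change of C3 in LIM1215-R2 within that interval was not detectable. LIM1215-R2 against LIM1215-R1 gave -2.28 (SE 0.286, adjusted p = 1.94e-06), and C3 was a DEG there too, beside 0.764% of all genes in either direction and 0.550% as lower (0.215% were higher). The leukocyte list summed higher in LIM1215-R1 as well, as given above, with CD68 making most of the sum. Of its 4 tested markers, 1 passed as higher there and 0 as lower, and their median log2 fold change was -0.103. CD3E, CD3D, MS4A1 and TYROBP were at 0, and CD14 and CSF1R had 12 and 20 counts in all. The fibroblast list summed to 1.63 to 1.72 CPM in LIM1215-R1 against 2.46 to 3.19 in LIM1215-parental. The libraries came from cultures of LIM1215 cells, and any part of other cell types in the C3 counts was not tested.

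CLU, the secreted chaperone clusterin, was higher in both resistant lines and more so in LIM1215-R1. The gene lies at chr8:27596917-27614700 on the minus strand, and the microRNA gene MIR6843 shares 151 of its exon bases. Its level was 6.491, 6.141 and 6.408 CPM in the LIM1215-parental libraries, 10.98, 13.43 and 13.27 CPM in LIM1215-R1, and 9.931, 7.681 and 9.276 CPM in LIM1215-R2. The 3 lines did not overlap, with LIM1215-R1 highest and LIM1215-parental lowest. The means were 6.35 ± 0.183, 12.6 ± 1.37 and 8.96 ± 1.16 CPM (SD, n = 3 each).

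The log2 fold change of CLU was 0.98 (SE 0.124, adjusted p = 3.45e-07) in LIM1215-R1, a rise of 1.97-fold, and 0.50 (SE 0.130, adjusted p = 0.00381) in LIM1215-R2, a rise of 1.41-fold. LIM1215-R2 was lower than LIM1215-R1, at -0.485 on the log2 scale (SE 0.119, adjusted p = 0.00599). The call in LIM1215-R2 against LIM1215-parental was lost without LIM1215-parental replicate 1 (adjusted p = 0.0104) or 3 (0.0131), or without LIM1215-R2 replicate 1 (0.0374) or 3 (0.0165). The call between the resistant lines was lost without LIM1215-R1 replicate 2 (adjusted p = 0.03) or 3 (0.0425), without LIM1215-R2 replicate 2 (0.0679) or 3 (0.0128), and with DESeq2's Wald test (0.0113).

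**Figure D2:**
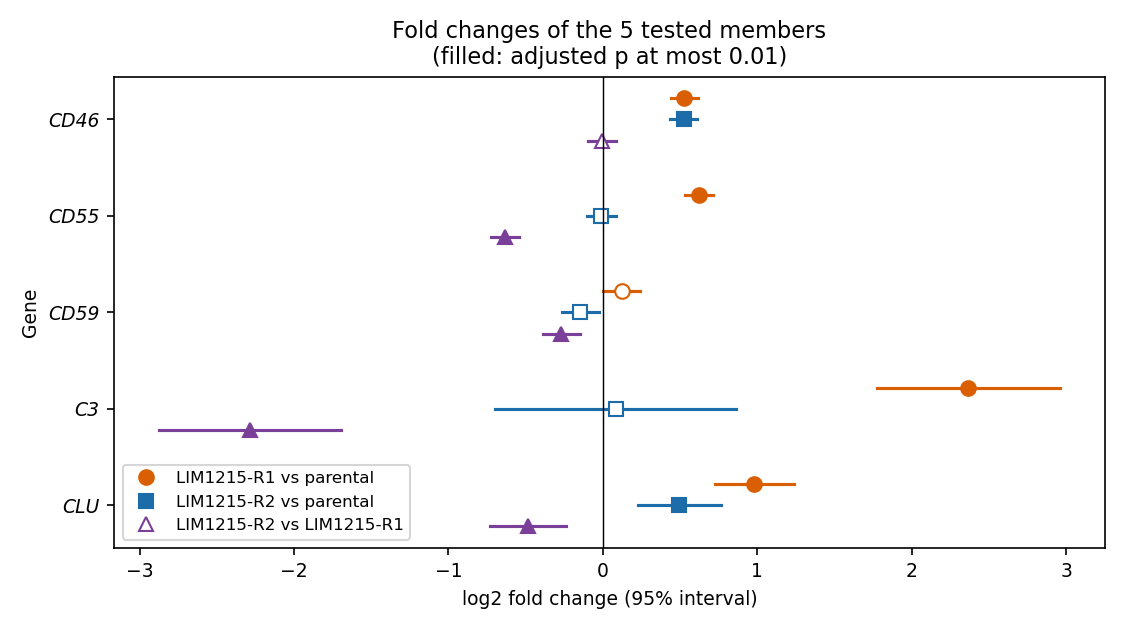
Log2 fold changes of the 5 tested members with 95% intervals in the 3 comparisons, with filled symbols at an adjusted p of at most 0.01. The intervals of CD46 coincide in both resistant lines at 0.53 and 0.52, whereas CD55 and C3 stand away from 0 in LIM1215-R1 at 0.62 and 2.37 and close to 0 in LIM1215-R2.

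CFI and SERPING1 were not detected beyond a single read. CFI, the gene of the protease that uses CD46 as its cofactor, had 0 counts in all 9 libraries, which allows at most 0.0602 CPM in the parental line and 0.0622 and 0.0621 CPM in LIM1215-R1 and LIM1215-R2 (3 counts over the 3 libraries of a line, for counting error only). SERPING1 had 1 count, in LIM1215-R1 replicate 3 (0.0626 CPM), and 0 in the other 8 libraries. Both were left out by the filter on low counts, and with every gene of at least 1 count kept, SERPING1 had adjusted p-values of 0.581, 1 and 0.657 in the 3 comparisons. CFI lies at chr4:109731008-109802150 and SERPING1 at chr11:57597387-57619171. Expressed genes beside them were counted as usual. GAR1, 53.6 kb from CFI, had 53.7, 50.6 and 50.8 CPM in LIM1215-parental, LIM1215-R1 and LIM1215-R2, and TIMM10, 76.7 kb before SERPING1, had 36.9, 42.3 and 36.5 CPM.

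Levels of different genes can be compared only per length, and per kilobase of exon the order CD46, CD55, CD59, CLU, C3 was found in each line. In LIM1215-parental the levels were 71.3 ± 3.62 CPM per kb for CD46, 22.1 ± 0.629 for CD55, 7.62 ± 0.471 for CD59, 1.01 ± 0.0292 for CLU and 0.0601 ± 0.0128 for C3 (SD, n = 3). In LIM1215-R1 they were 103, 34.1, 8.29, 1.998 and 0.308 CPM per kb, and in LIM1215-R2 102, 21.97, 6.89, 1.43 and 0.0631. Neighbours in this order did not overlap in any line. The order was the same with the longest annotated transcript as the length, where the parental levels were 141, 60.0, 10.4, 2.26 and 0.133 CPM per kb.

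**Figure D3:**
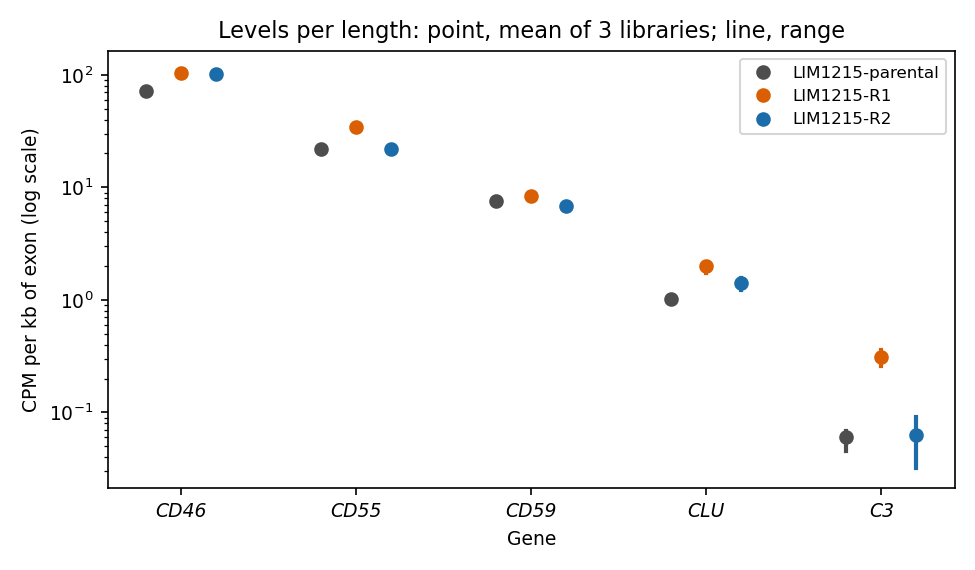
Level per kilobase of exon of the 5 detected members on a log axis, with the mean of 3 libraries as a point and their range as a line. The surface regulators CD46, CD55 and CD59 lie at 6.89 to 103 CPM per kb in the 3 lines, CLU at 1.01 to 1.998 and C3 at 0.0601 to 0.308.

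Among the 3 surface regulators, the mix differed in LIM1215-R2. CD46 made 70.5% ± 0.823 of their summed level per kilobase in the parental line, 70.8% ± 0.341 in LIM1215-R1 cells and 78.0% ± 0.537 in LIM1215-R2 (SD, n = 3 each). CD55 made 21.9% ± 0.448, 23.5% ± 0.289 and 16.7% ± 0.482. CD59 made 7.55% ± 0.429, 5.72% ± 0.0765 and 5.25% ± 0.166. The share of CD46 was thus larger and that of CD55 smaller in LIM1215-R2 than in the other lines, and that of CD59 smaller in both resistant lines. These shares depend on the lengths used, and with the longest transcripts that of CD46 was 66.7%, 66.2% and 74.6%.

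The regulator cluster on chromosome 1 holds 7 complement genes of the lists within 1000 kb of CD55, of which 5 were tested. C4BPB and C4BPA encode the beta and alpha chains of C4b-binding protein, a secreted regulator of the classical pathway, and lie 246.9 and 216.7 kb before CD55. C4BPB was 52.52, 52.59 and 53.63 CPM in the LIM1215-parental libraries, 113.2, 102.7 and 99.93 CPM in LIM1215-R1, and 72.73, 71.23 and 73.16 CPM in LIM1215-R2. The lines did not overlap, and LIM1215-R1 was highest. Its log2 fold change was 0.99 (adjusted p = 9.28e-14) in LIM1215-R1, 0.45 (adjusted p = 5.79e-07) in LIM1215-R2 and -0.54 (adjusted p = 9.02e-08) between them.

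C4BPA went the other way. Its counts are uncertain in so far as reads could be split with its pseudogene C4BPAP1, which was not tested. It was 2.655, 2.745 and 2.364 CPM in the LIM1215-parental libraries, 1.35, 1.192 and 1.126 CPM in LIM1215-R1, and 0.4163, 0.6194 and 0.196 CPM in LIM1215-R2, again with no overlap between the lines but with LIM1215-parental highest. Its log2 fold change was -1.07 (adjusted p = 0.00174) in LIM1215-R1, -2.62 (adjusted p = 1.87e-07) in LIM1215-R2 and -1.55 (adjusted p = 0.00438) between them. CR2, the receptor for C3 fragments on B cells, lies 131 kb after CD55 and did not pass in any comparison, with 77 counts in all. CR1 had 1 count and CR1L 0. Within the cluster, then, CD46, CD55 and C4BPB were higher and C4BPA lower in LIM1215-R1, and CD46 and C4BPB higher, C4BPA lower and CD55 near its parental level in LIM1215-R2.

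**Figure D4:**
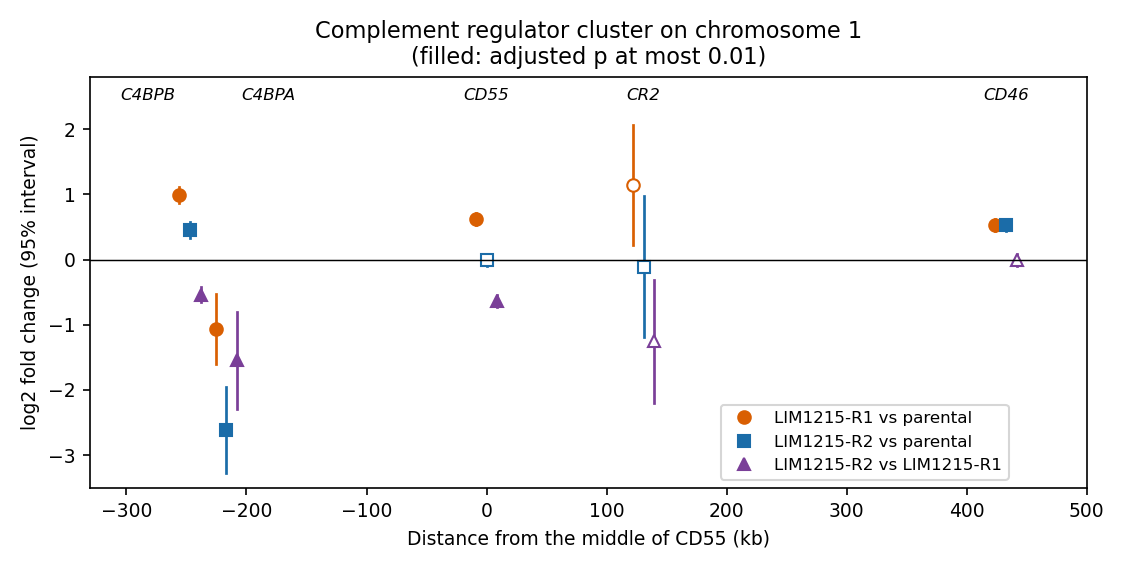
Log2 fold changes with 95% intervals of the 5 tested complement genes of the chromosome 1 cluster against their distance in kb from the middle of CD55, with filled symbols at an adjusted p of at most 0.01. C4BPB is higher and C4BPA lower in both resistant lines, CD55 is higher in LIM1215-R1 only and CD46, 433 kb away, is higher in both.

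Beyond the members, 56 other complement genes were listed, of which 28 had no count, 12 had 1 to 9 counts and 16 were tested. In each comparison 1 of the 16 passed as higher (6.25%) and 4 as lower (25%). Of all genes, 14.0%, 12.3% and 3.39% passed as higher and 13.4%, 11.6% and 3.77% as lower in LIM1215-R1 against LIM1215-parental, LIM1215-R2 against LIM1215-parental and LIM1215-R2 against LIM1215-R1. In the same order, the median log2 fold changes of the 16 were -0.19, -0.19 and -0.31. Of the 28 without a count, C2, C4A, C4B and CFB were covered by alternate sequences of hg38, as were widely expressed genes of the same stretch of chromosome 6 (EHMT2, DDX39B and CLIC1, chosen after their values were seen), which were listed at 0 too. Their zeros are therefore not read as a lack of expression. No member was covered by an alternate sequence.

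Of the early pathway genes, the C1 proteases C1R and C1S were tested, with mean levels of 1.21 and 0.759 CPM in LIM1215-parental, and neither passed in any comparison. MBL2, COLEC10, CFD and CFP did not pass either. C5, which starts the terminal pathway, fell in LIM1215-R1. It was 11.8, 8.958 and 11.66 CPM in the LIM1215-parental libraries, 5.03, 5.398 and 5.256 CPM in LIM1215-R1, and 8.801, 8.238 and 8.034 CPM in LIM1215-R2. LIM1215-R1 was lowest, and the 3 lines did not overlap. The log2 fold change was -1.06 (adjusted p = 2.13e-07) in LIM1215-R1, -0.38 (adjusted p = 0.0162) in LIM1215-R2 and 0.68 (adjusted p = 0.00096) in LIM1215-R2 against LIM1215-R1, so that C3 and C5 stood at opposite ends in LIM1215-R1. C6, C8A, C8B and C9 had no count.

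Of the other regulators, VTN (vitronectin, which binds the terminal complex) and SUSD4 (a membrane protein that inhibits complement) were lower in LIM1215-R2. VTN averaged 2.75 ± 0.196, 2.47 ± 0.341 and 0.904 ± 0.609 CPM in LIM1215-parental, LIM1215-R1 and LIM1215-R2 (SD, n = 3 each). Its log2 fold change was -0.15 (adjusted p = 0.707) in LIM1215-R1 and -1.61 (adjusted p = 0.000108) in LIM1215-R2. SUSD4 averaged 5.56 ± 0.316, 2.89 ± 0.750 and 0.855 ± 0.196 CPM, and fell in both lines, with log2 fold changes of -0.95 (adjusted p = 0.000192) and -2.70 (adjusted p = 3.23e-10). Both were DEGs in LIM1215-R2 against LIM1215-parental, as was C4BPA.

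**Figure D5:**
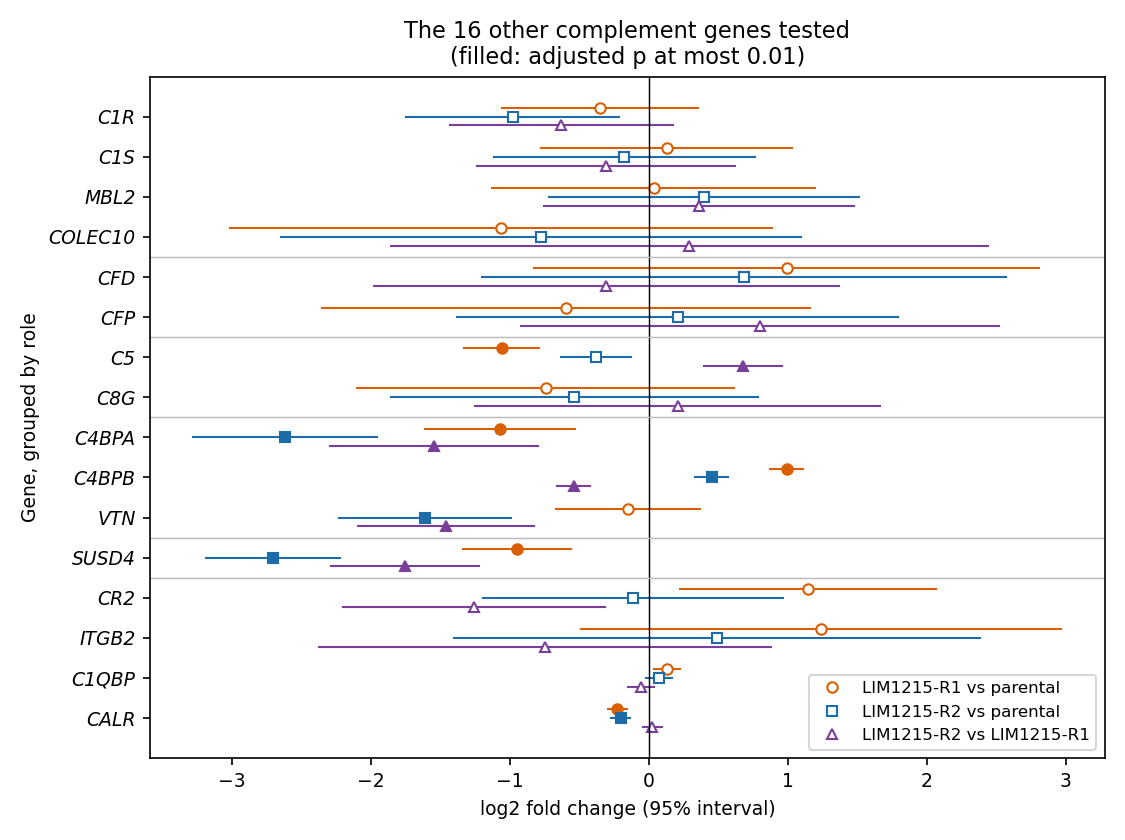
Log2 fold changes with 95% intervals of the 16 other complement genes tested, in order of pathway step (classical and lectin, alternative, terminal, soluble regulators, membrane regulators, receptors), with filled symbols at an adjusted p of at most 0.01. Genes with few counts such as COLEC10 have wide intervals, while C5, C4BPA, VTN and SUSD4 stand below 0 in at least 1 resistant line and C4BPB above it.

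Of the 10 complement receptors listed, 4 were tested and CALR alone passed. Calreticulin, a chaperone of the endoplasmic reticulum that also binds C1q, averaged 1392 ± 13.8 CPM in the parental line, 1188 ± 11.5 in LIM1215-R1 cells and 1210 ± 23.7 in LIM1215-R2 (SD, n = 3 each). It was lower by log2 fold changes of -0.23 (adjusted p = 3.23e-06) and -0.20 (adjusted p = 1.93e-05). C1QBP, with a mean of 298 CPM in LIM1215-parental, did not pass. The anaphylatoxin receptor genes C3AR1, C5AR1 and C5AR2 had 0, 9 and 2 counts in all.

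CD55 and CD59 are held in the membrane by a glycosylphosphatidylinositol (GPI) anchor, and 30 of the 32 genes listed for making and remodelling that anchor were tested. In LIM1215-R1, 4 passed as higher (13.3%) and 7 as lower (23.3%), beside 14.0% and 13.4% of all genes. In LIM1215-R2, 0 passed as higher and 5 as lower (16.7%), beside 12.3% and 11.6% of all genes. Between the resistant lines 1 was higher (3.33%) and 2 lower (6.67%) in LIM1215-R2, beside 3.39% and 3.77% of all genes. In LIM1215-R2 against LIM1215-parental, 2 GPI genes were higher and 11 lower at an unadjusted p under 0.05 in edgeR's test. The share of all genes at that threshold is not given here, so these counts are not read as a direction of the list. DESeq2's Wald test at an adjusted p of at most 0.01 passed 4 in either direction, and its share of all genes is not given here. The median log2 fold changes of the list were -0.062, -0.043 and -0.050. PGAP1, the enzyme that removes an acyl chain from the inositol, had the largest change of the list in LIM1215-R1. It was 45.14, 41.61 and 48.17 CPM in the LIM1215-parental libraries, 26.32, 19.71 and 21.09 CPM in LIM1215-R1, and 32.59, 29.73 and 26.85 CPM in LIM1215-R2. All resistant libraries were below all parental ones. The log2 fold change was -1.01 (adjusted p = 8.56e-10) in LIM1215-R1 and -0.60 (adjusted p = 4.34e-06) in LIM1215-R2, and LIM1215-R2 was higher than LIM1215-R1 by 0.41 (adjusted p = 0.0041).

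PGAP3, PGAP4, PIGN and PIGZ were lower in both resistant lines. The log2 fold changes in LIM1215-R1 and LIM1215-R2 were -0.48 and -0.60 for PGAP3 and -0.48 and -0.61 for PIGZ. They were -0.27 and -0.38 for PGAP4 and -0.46 and -0.25 for PIGN. In LIM1215-R2, PGAP3, PIGZ and PGAP1 thus changed by like amounts, and PGAP4 and PIGN by less. PIGO and PIGV passed as lower in LIM1215-R1 only, at -0.24 and -0.53, and their values in LIM1215-R2 were -0.22 and -0.35. PIGH, PIGT, PGAP6 and DPM2 passed as higher in LIM1215-R1, at 0.49, 0.29, 0.32 and 0.29. PIGT, a subunit of the transamidase that attaches the anchor, was lower in LIM1215-R2 than in LIM1215-R1 (-0.30, adjusted p = 0.0015), as was PIGQ (-0.45, adjusted p = 0.00174). None of the 30 was a DEG in any comparison.

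Clusterin binds lipoprotein receptors, of which LRP8 and VLDLR passed as higher in both resistant lines. LRP8 averaged 118 CPM in LIM1215-parental, and its log2 fold changes were 0.69 (adjusted p = 9.04e-12) and 0.68 (adjusted p = 9.74e-12). VLDLR had 6, 0 and 0 counts in the LIM1215-parental libraries, 35, 33 and 44 in LIM1215-R1, and 28, 10 and 33 in LIM1215-R2. Its log2 fold changes were 4.19 (adjusted p = 1.08e-06) and 3.53 (adjusted p = 4.53e-05). Their size is uncertain, because the only LIM1215-parental counts were the 6 of replicate 1. The C1 inhibitor also inhibits proteases of the contact system, of which F12 (factor XII) was higher in both lines, with 17.3, 26.9 and 23.3 CPM on average and log2 fold changes of 0.65 (adjusted p = 7.8e-06) and 0.44 (adjusted p = 0.00127). KLKB1 did not pass, and F11 had 2 counts in all. KNG1, listed with the contact system although it does not encode a protease, had 3.

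The genes next to CD46, CD55, C3 and CLU were examined by position, with the 3 nearest tested genes on each side. These members had passed against LIM1215-parental in at least 1 line, and the neighbours of CD59 were not examined. Beside C3, TNFSF9, a ligand of the TNF family, rose in both resistant lines, with log2 fold changes of 1.55 (adjusted p = 4.33e-10) and 0.97 (adjusted p = 4.4e-06). CD70, another such ligand 113 kb from C3, rose in LIM1215-R1 by 3.35 (adjusted p = 3.38e-06) and was lower in LIM1215-R2 than in LIM1215-R1 by -2.34 (adjusted p = 0.000366), with 93 counts in all. On the other side GPR108, 34.6 kb from C3, was -0.16 (adjusted p = 0.0723) in LIM1215-R1 and fell by 0.41 on the log2 scale in LIM1215-R2 (adjusted p = 3.93e-05), and TRIP10 did not pass. Beside CLU, EPHX2 fell in both lines (-1.02 and -1.04, adjusted p = 1.16e-08 and 8.29e-09). SCARA3 and GULOP passed as lower in LIM1215-R2 but not in LIM1215-R1 (in LIM1215-R2 -0.70 and -2.70, adjusted p = 2.45e-08 and 0.00291). None of the 6 neighbours of CLU passed as higher in any comparison. Beside CD46, 1 of 6 neighbours passed, PLXNA2, which fell in both lines (-0.86 and -1.09, adjusted p = 1.14e-11 and 1.25e-13). Beside CD55, C4BPA and the pseudogene C4BPAP1 (-0.79, adjusted p = 0.00118) passed as lower in LIM1215-R1. Of all genes, 27.3% passed in either direction in LIM1215-R1 and 23.8% in LIM1215-R2, each against LIM1215-parental. Some neighbours had few counts in all, such as CD46P1 and RPS26P13 beside CD46 (14 and 12) and LOC124901920 beside CLU (10). The numbers of neighbours passed are therefore not read as a result about these regions.

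Genes of like pattern were found by the root mean square difference of their centred log2 CPM from a member over the 9 libraries, among 12562 genes of at least 1 CPM. Nearest to CD46 were LPGAT1, CEP55 and S100A6, at differences of 0.037, 0.040 and 0.042. LPGAT1 averaged 135, 198 and 202 CPM in the 3 lines. Nearest to CD55 were SESN1, GADD45A and SDCBP (0.070, 0.074 and 0.075), and SESN1 averaged 14.5, 22.4 and 15.1 CPM. CD59 was nearest to IFT57, COPS4 and EIF3B, at 0.038, 0.041 and 0.053. For C3 the nearest were HOXA7, MIR1915HG and TAGLN, less alike at 0.337, 0.346 and 0.378, with TAGLN at 3.29, 16.2 and 2.94 CPM. CLU was nearest to RHOD, PLAAT3 and ATF3 (0.11, 0.116 and 0.122), of which ATF3 averaged 10.7, 19.9 and 14.3 CPM.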

How the data were processed

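Per the sources used here, poly(A) RNA of 3 LIM1215 lines was made into stranded libraries, read from both ends, aligned to hg38 with STAR and assigned to genes by reverse-strand htseq-count 0.9.1. The gene annotation is not given in the sources used here. The authors deposited 1 table of raw counts per library, without normalization. The analysis used edgeR 4.0.16 under R 4.3.3. Genes with at least 10 counts over 9 libraries were kept, TMM factors were applied, and 1 quasi-likelihood model over all libraries gave the 3 comparisons of lines, and p-values were adjusted by Benjamini-Hochberg over every gene tested. Intervals are 95%. Scripts were tested on simulated data. Members and gene lists were chosen with earlier results of these data known. Named were all members and listed genes that were DEGs, or reached 5 CPM in a line and passed in a comparison. So were the 3 genes of closest pattern per tested member. Also named were tested neighbours, 3 on each side, of members that passed against LIM1215-parental. Other genes named were chosen after their values were seen. Lengths and positions came from GENCODE release 44, promoters from RefSeq, and alternate sequences were found with minimap2 2.31 (at least 50% of the longest transcript at 99% identity). Alternatives were other filters, scalings and thresholds, DESeq2 1.42.0 with and without lfcShrink, fits to each comparison's libraries, a replicate block, each library left out and, added after seeing the data, GC content and length trends removed. Some listed genes are not reported here by name.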

Additional observations from a re-analysis of the deposited data

Results flagged for a closer look

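The change from LIM1215-parental differed between the resistant lines for 4 members. LIM1215-R2 was tested against LIM1215-R1 with edgeR's quasi-likelihood test and Benjamini-Hochberg adjustment. Of all genes, 7.16% passed in this comparison in either direction and 3.77% as lower. The share of all genes whose libraries did not overlap is not given here. CD55 differed by a log2 fold change of -0.633 (adjusted p = 6.74e-11), with all 3 LIM1215-R2 libraries below all 3 of LIM1215-R1. C3 differed by -2.28 (adjusted p = 1.94e-06) with the same separation of libraries. CD59 differed by -0.269 (adjusted p = 0.00191) and CLU by -0.485 (adjusted p = 0.00599), also without overlap, and these calls depended on single libraries. CD46 was not among them, with a difference of -0.0051.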

How the results depend on the processing

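No member's fold change turned its direction where it had passed the test, and 253 of 267 fold changes kept their side of the threshold, among which some that had not passed and lay close to 0 changed sign. DESeq2 left CLU between the resistant lines at -0.491 with its Wald test and -0.452 with lfcShrink (adjusted p = 0.0113 for each). With at least 10 counts required in every library, C3 dropped out, which left 0 DEGs among the members in LIM1215-R1 against LIM1215-parental and 0 between the resistant lines, and 3 other complement genes passed in LIM1215-R2 against LIM1215-parental and 3 between the resistant lines. With GC content and length trends removed (added after seeing the data; both were known for 86.3% of the genes tested), CD59 in LIM1215-R1 against LIM1215-parental became 0.213, CD46 between the resistant lines -0.152, and 10 GPI genes passed in LIM1215-R2 against LIM1215-parental. Levels per kilobase of the longest transcript were 141 for CD46, 60.0 for CD55, 10.4 for CD59, 0.133 for C3 and 2.26 for CLU. The causes of these shifts, other than the smaller set of genes and the shorter lengths, were not tested. To check the replicate numbers, each line's mean was subtracted from log2 CPM, and libraries of different lines were correlated over genes. The 9 pairs with the same number had correlations of these residuals from -0.186 to 0.581, and 4 exceeded 0.1. The 18 pairs with different numbers ran from -0.568 to 0.438, and 6 exceeded 0.1. The numbers were therefore not taken to pair the libraries. The replicate block moved the GPI genes passed in LIM1215-R2 against LIM1215-parental from 5 to 9 and changed no call of a member. The shares of all genes that passed under the alternatives are not given here.

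With each library left out in turn, CLU ranged from 0.413 to 0.596 in LIM1215-R2 against LIM1215-parental and from -0.574 to -0.385 between the resistant lines, and CD59 between the resistant lines from -0.302 to -0.239. The members passed ranged from 1 to 2 in LIM1215-R2 against LIM1215-parental and from 2 to 4 between the resistant lines, where the lowest count came without LIM1215-R1 replicate 3 or LIM1215-R2 replicate 2. Other complement genes passed between the resistant lines ranged from 2 (without LIM1215-R2 replicate 1) to 5. GPI genes passed ranged from 7 to 10 in LIM1215-R1 and from 3 to 7 in LIM1215-R2 against LIM1215-parental, and from 0 to 4 between the resistant lines. Depth limits C3, CFI and SERPING1, with at most 68 counts in a library.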
